A study of Mus musculus with 10 samples.

Results

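GABA-A receptors are chloride channels built of several subunits and opened by GABA, the main inhibitory transmitter of the brain. The 7 subunit genes described here were fixed by name: 4 alpha genes (Gabra2, Gabra3, Gabra4 and Gabra5), 2 beta genes (Gabrb1 and Gabrb2) and the delta gene Gabrd. They are 7 of 56691 genes in the count table and 7 of the 18440 genes that had enough counts to be tested. With 9 further subunit genes that could be tested they make up 16 tested GABA-A receptor genes, of whose summed level per exon length the 7 held 30.2 to 35.1% in the 10 libraries. The largest part of the receptor family's RNA therefore lies outside these 7 genes, and the proportions below are proportions among the 7.

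The libraries came from the ventral tegmental area, a midbrain region rich in dopaminergic neurons, of male C57BL/6 mice labelled as wild type. The restraint group was kept from moving for 30 min and the control group was not; by the design text both groups carried the construct NBL10-HA in dopaminergic neurons, through which RNA bound to ribosomes was enriched, although the molecule label reads total RNA. Each group had 5 libraries. The labels used here name neither the promoter that drives the construct nor the number of animals behind a library, nor do they say that the libraries of a group came from separate animals, so p-values measure the spread between these libraries. Totals ran from 56082358 to 86584968 read counts per library. On the first principal component restraint 1 scored 92.1 and the other 9 libraries -19.2 to 4.08. In restraint 1, 20936 genes were detected, against 22268 or more elsewhere. The Gabra3 fold change and the Gabra3 and Gabrb1 shares are therefore also given without restraint 1. Other results include that library unless stated.

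In a GABA-A receptor, GABA binds where a beta subunit meets an alpha subunit, and the kind of alpha subunit sets much of the receptor's drug response and place on the neuron. Receptors with the delta subunit lie mostly outside synapses, carry a steady inhibition and are known for their response to neurosteroids. In the ventral tegmental area dopaminergic neurons receive dense GABA input, and the alpha-3 subunit is known from monoaminergic neurons. Summed dopamine neuron markers ran from 2090 to 2890 CPM (counts scaled to the depth of each library) in controls and from 2360 to 3290 CPM after restraint, and all 16 were detected. All 15 astrocyte markers were detected too, with sums of 7090 to 8240 CPM in controls and 7860 to 9230 CPM after restraint, and all 12 GABA neuron markers, with sums of 2090 to 2300 and 2120 to 2550 CPM. RNA of other cell types was thus present, the levels below are not assigned to a cell type, and in these bulk libraries fewer cells of a type and less RNA per cell cannot be told apart.

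The genes are spread over 5 chromosomes (table coordinates, GRCm39). Gabra2 (71114940 to 71253192, minus strand), Gabra4 (71727092 to 71815651, minus strand) and Gabrb1 (71815456 to 72306380, plus strand) lie together on chromosome 5. Gabra5 is on chromosome 7 (57057420 to 57159807), Gabrb2 on chromosome 11 (42310584 to 42519855), Gabrd on chromosome 4 (155469437 to 155482569) and Gabra3 on chromosome X (71476287 to 71700454). Gabra4 and Gabrb1 are read away from each other from starts that overlap: their gene spans share 196 bases, of which 46 are exonic in both. Reads over these 46 bases were not assigned to either gene, which concerns 0.756% of the exon bases of Gabra4 and 0.332% of those of Gabrb1. Gabra5 shares 4.98% of its exon bases with Gm9962 on the other strand, and the other 4 genes share none.

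The DNA before the start of 4 of these genes is shown. They are the highest gene (Gabra3), a scarce one (Gabrb2) and a pair whose levels moved together across libraries (Gabra2 and Gabra4). The letters are RefSeq's, build GRCm38.p6, 5′ to 3′ in the direction of the gene, without annotated exons, and capitals mark CG dinucleotides.
Gabra3, chrX:72656920-72657169, minus strand, 250 bases: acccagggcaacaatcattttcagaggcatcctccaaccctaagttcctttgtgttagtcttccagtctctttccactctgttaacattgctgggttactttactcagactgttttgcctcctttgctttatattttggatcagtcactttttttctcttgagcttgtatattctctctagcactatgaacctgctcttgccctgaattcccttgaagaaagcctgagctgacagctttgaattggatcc
Gabrb2, chr11:42420951-42421200, plus strand, 250 bases: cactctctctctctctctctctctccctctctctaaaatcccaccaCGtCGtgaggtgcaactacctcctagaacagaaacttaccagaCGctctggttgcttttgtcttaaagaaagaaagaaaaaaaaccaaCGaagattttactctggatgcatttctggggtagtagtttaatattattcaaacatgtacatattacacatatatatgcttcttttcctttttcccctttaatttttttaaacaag
Gabra2, chr5:71095850-71096099, minus strand, 250 bases: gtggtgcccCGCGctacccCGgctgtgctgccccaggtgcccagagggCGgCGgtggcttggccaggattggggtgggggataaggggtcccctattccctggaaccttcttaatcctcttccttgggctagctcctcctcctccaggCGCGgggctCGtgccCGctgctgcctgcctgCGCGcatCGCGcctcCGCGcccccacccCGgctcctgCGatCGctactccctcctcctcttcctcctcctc
Gabra4, chr5:71658364-71658558, minus strand, 195 bases: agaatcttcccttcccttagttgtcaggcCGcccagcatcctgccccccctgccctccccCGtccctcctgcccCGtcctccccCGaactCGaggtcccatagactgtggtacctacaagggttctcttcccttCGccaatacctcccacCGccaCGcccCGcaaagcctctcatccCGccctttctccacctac
The stretch before Gabra3 held no CG, against 4 before Gabrb2, 18 before Gabra2 and 10 in the shorter stretch before Gabra4. Of the stretches not shown, those before the other Gabrb2 starts held 8 each, that before Gabra5 held 9 and that before a Gabrb1 start 6. Whether these letters bear on the levels was not tested. GENCODE (release M21) has an exon that begins at the RefSeq start shown for Gabrb2, Gabra2 and Gabra4, but none that begins at either RefSeq start of Gabra3.

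RefSeq's start windows of 300 bases (250 before the start and 50 after it) covered 6 of the 7 genes with 10 windows. Both Gabra3 windows held 0 CG dinucleotides, as did 5.43% of all 32851 windows, whose median was 7. The Gabra2 window and the first of the Gabrb1 windows held 25, a number reached by 18.4% of all windows. GC content ran from 39.3% in a Gabra3 window to 70% in the Gabra2 window, around a median of 52.7% over all windows. Searched on both strands, TATAAA, the letters of a TATA box, was found in both Gabra3 windows and 1 of 3 Gabrb2 windows (13.6% of all windows). The 2 Gabra3 windows overlap and share that match, which lies on the strand opposite to the gene. The Gabrb2 match lies on the strand of the gene. GGGCGG, the letters of a GC box, was found in the windows of Gabra2 and Gabra4 and in 1 Gabrb2 window (35.7% of all windows). TTCNNNGAA, the core bound by STAT factors, was found in 1 Gabrb1 window (8.3% of all windows). TGACGTCA and GCGTGGGCG, letters bound by CREB and EGR factors, were in none of the 10 windows and in 1.79% and 0.612% of all windows. These matches describe letters in a window and are no evidence of binding.

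The comparison asked whether the RNA of these subunits differed after restraint. None of the 7 genes passed the quasi-likelihood test of edgeR with Benjamini-Hochberg adjustment over all genes: at a threshold of 0.05, 0 of 7 were called, where 0.0217% of all genes were (0.00542% higher and 0.0163% lower). At an unadjusted p under 0.05 the count was also 0 of 7, against 11.7% of all genes, and in 0 of 7 did the groups' ranges not overlap, against 2.61% of all genes. DESeq2, limma-voom (0.0217% of all genes called) and limma-voom with quality weights (0.472%) likewise called 0 of the 7. DESeq2 called 2.76% of the 12005 genes to which it gave an adjusted p, and it gave none for Gabrd. The median log2 fold change of the 7 was -0.03, with 3 positive, and that of all genes was -0.00222. Of the marker lists, dopamine neuron markers had a median of 0.30 (8 of 16 higher at an unadjusted p under 0.05, 0 lower). Of all genes, 5.64% were higher and 6.04% lower at that p by edgeR. Vascular markers had 0.22 (3 of 9 higher, 1 lower), astrocyte markers 0.19 (4 of 15, 0 lower) and oligodendrocyte markers 0.06 (3 of 12, 0 lower). Glutamate neuron markers had -0.01 (2 of 7 higher, 1 lower) and thalamus markers -0.59 (0 of 5 higher, 2 lower). GABA neuron (0.06), cerebellar granule cell (0.03) and microglia markers (-0.07) had 0 in either direction. The part of these markers in the subunit values was not tested. The genes fell into 5 that were measured closely, with standard errors of 0.09 to 0.12 on the log2 scale, and the scarce Gabrb2 and Gabrd, with standard errors of 0.52 and 0.47. Values below are RPKM, the TMM-scaled CPM divided by the exon length in kilobases, so that genes of different length can be set side by side.

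**Figure D1:**
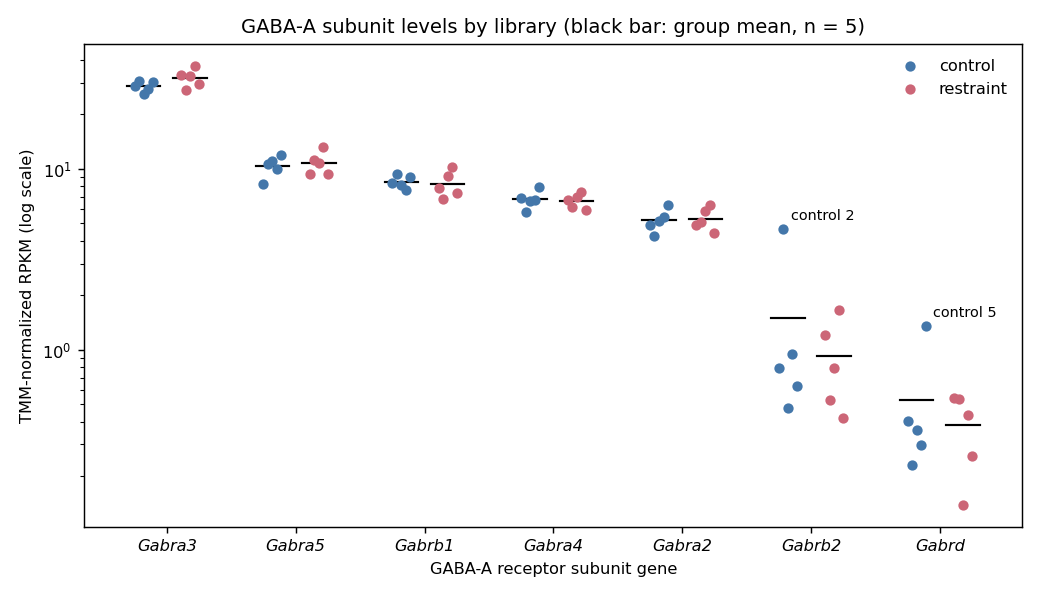
Level of each GABA-A subunit gene (x axis, in order of the mean) in each library, as TMM-normalized RPKM on a log axis; blue points are the 5 controls, red points the 5 restraint libraries and black bars the group means. Gabra3 stands apart at 25.9 to 37.1 RPKM, and control 2 for Gabrb2 (4.63 RPKM) and control 5 for Gabrd (1.36 RPKM) lie far above the other libraries.

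Gabra3, which encodes the alpha-3 subunit, had the highest level of the 7 in every library. It stood at 28.7, 30.5, 25.9, 27.8 and 30.4 RPKM in controls 1 to 5 and at 32.9, 27.4, 32.7, 37.1 and 29.3 RPKM in restraint 1 to 5. Restraint 1, 3 and 4 lay above every control, while restraint 2 and 5 lay among the controls, so the groups overlapped. The means were 28.7 ± 1.94 and 31.9 ± 3.74 RPKM (SD, n = 5 each). The log2 fold change was 0.15 ± 0.09 (SE, 95% interval -0.03 to 0.34; edgeR adjusted p = 0.533), with 4 of 5 restraint libraries above the control median. Of the 7 genes this one had the smallest p, and the interval reached from 0.978 to 1.26 times the control level. Without restraint 1 the log2 fold change stayed at 0.15.

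Gabra5, whose alpha-5 subunit forms many receptors outside synapses, was next in level. It stood at 8.27, 10.7, 11, 9.99 and 12 RPKM in the controls and at 9.36, 11.2, 10.8, 13.3 and 9.36 RPKM after restraint. The groups overlapped over most of their ranges. The log2 fold change was 0.06 ± 0.12 (SE, 95% interval -0.19 to 0.30; edgeR adjusted p = 0.911), and restraint 4, the highest library, was also the highest for Gabra3 and Gabrb1.

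Gabra4, whose alpha-4 subunit often pairs with delta and gives receptors that classical benzodiazepines do not act on, stood at 6.91, 5.80, 6.68, 6.77 and 7.92 RPKM in the controls. After restraint it stood at 6.77, 6.19, 6.96, 7.49 and 5.90 RPKM, all within the control range. Gabra2, whose alpha-2 subunit is found at many synapses and is linked to the calming action of benzodiazepines, stood at 4.89, 4.27, 5.18, 5.43 and 6.31 RPKM in the controls and at 4.87, 5.12, 5.87, 6.31 and 4.4 RPKM after restraint. The groups overlapped in both genes, and control 5 was the highest control and control 2 the lowest library in both. The log2 fold changes were -0.03 ± 0.10 for Gabra4 (SE, 95% interval -0.23 to 0.17; edgeR adjusted p = 0.94) and 0.03 ± 0.11 for Gabra2 (-0.22 to 0.27; edgeR adjusted p = 0.962). For Gabra2 the interval spans 0.861 to 1.21 times the control level, and for Gabra4 0.85 to 1.12 times.

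Gabrb1 encodes the beta-1 subunit. Its 9.33 RPKM in control 2 and 9.08 RPKM in control 5 were above the 8.32, 8.19 and 7.63 RPKM of controls 1, 3 and 4, and restraint 1 to 5 had 7.81, 6.86, 9.12, 10.2 and 7.39 RPKM. Restraint libraries were thus both the lowest and the highest. The log2 fold change was -0.04 ± 0.10 (SE, 95% interval -0.26 to 0.18; edgeR adjusted p = 0.932).

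Gabrb2, the beta-2 gene, was scarce and uneven, with 204 to 2215 counts. Controls had 0.791, 4.63, 0.477, 0.948 and 0.632 RPKM and restraint libraries 1.2, 0.526, 0.798, 1.67 and 0.420 RPKM. Control 2 alone was 4.63, above every other library, and restraint 4 was next. The log2 fold change over all libraries was -0.70 ± 0.52 (SE, 95% interval -1.81 to 0.41; edgeR adjusted p = 0.662). Without control 2 it was 0.38 (edgeR adjusted p = 0.704), so 1 library set the sign. Across the 10 libraries the highest Gabrb2 level was 11 times the lowest, against 1.37 to 1.61 times for the 5 closely measured genes. Its coefficient of variation was 104%, where counting error alone would give about 5.35% if each count were independent. In control 2 Gabra2 and Gabra4 were at their lowest level of all libraries, while Gabrb1 was at its highest control level. Of 9 marker lists, the sum in control 2 lay within the range of the other libraries for 8. Among these were dopamine neuron (2280 CPM), GABA neuron (2190 CPM) and thalamus markers (207 CPM). The astrocyte sum of control 2 (7090 CPM) was the lowest of the 10. Within the GABA neuron list, Gad2 (442 CPM), Slc32a1 (217 CPM) and Tal1 (30.1 CPM) were highest of all libraries in control 2. Calb2 (603 CPM) was lowest there, and the other members of that list were neither highest nor lowest. The part of these markers in the Gabrb2 level was not tested.

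Gabrd, which encodes the delta subunit, had the lowest mean level and only 22 to 224 counts per library. The controls stood at 0.403, 0.231, 0.362, 0.296 and 1.36 RPKM and the restraint libraries at 0.542, 0.535, 0.139, 0.436 and 0.260 RPKM. Control 5 exceeded the next highest library by more than the whole spread of the others. The log2 fold change was -0.46 ± 0.47 (SE, 95% interval -1.45 to 0.53; edgeR adjusted p = 0.769) over all libraries and 0.24 without control 5 (edgeR adjusted p = 0.884). The interval reaches from 0.366 to 1.44 times the control level. The coefficient of variation over the 10 libraries was 74.9%, where counting error alone would give about 12.1% if each count were independent.

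Of 5 listed genes that mark the thalamus, a region known for delta-containing receptors, 3 were also highest in control 5. Prkcd, a protein kinase C gene, stood at 28.9 CPM there, against 4.86 to 12.8 CPM in the other 9 libraries, and Lef1, a transcription factor gene, at 5.52 against 1.15 to 2.56 CPM. Gbx2, a homeobox gene, was also highest in control 5 (4.96 CPM), close to the 4.55 CPM of control 3, in which Gabrd was not raised. Tcf7l2 and Rora were not highest there (87.3 and 76.7 CPM). All 5 listed thalamus markers were detected. Their sum was 203 CPM in control 5, and ran from 147 to 226 CPM in controls and from 139 to 170 CPM after restraint. By edgeR 0 of 5 passed, and all 5 had a negative log2 fold change (median -0.59, against -0.00222 over all genes), 2 of them at an unadjusted p under 0.05. Of all genes, 6.04% were lower at that unadjusted p. The part of these markers in the Gabrd values was not tested.

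**Figure D2:**
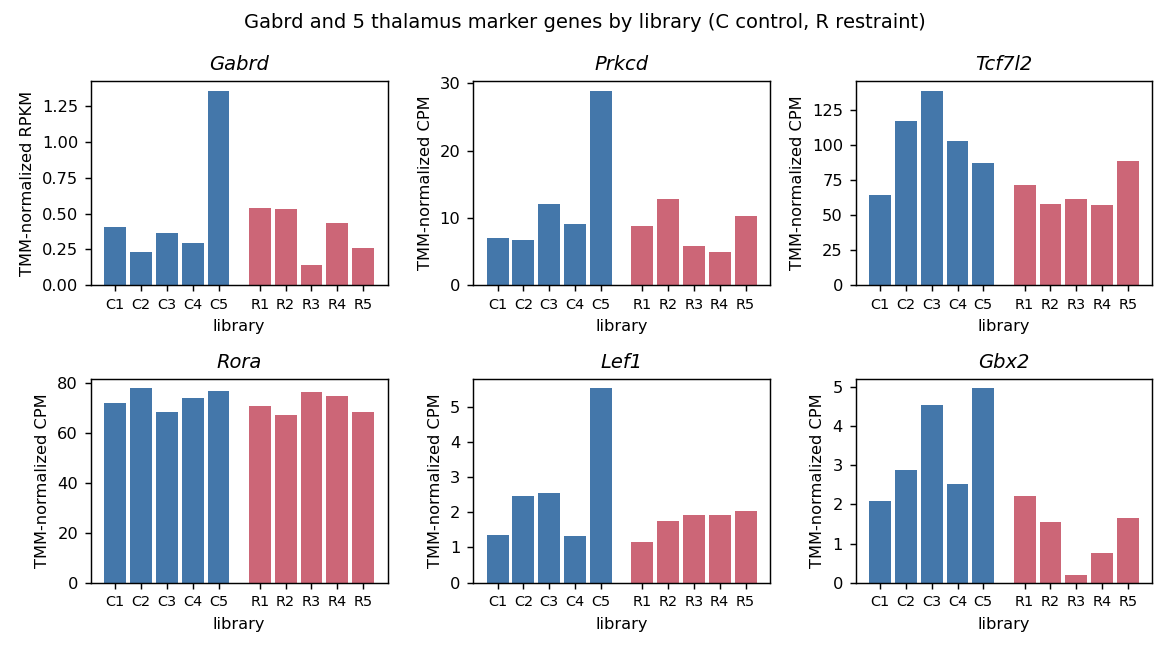
Bars give Gabrd in TMM-normalized RPKM and the 5 listed thalamus markers in TMM-normalized CPM for each library, controls (C1 to C5) in blue and restraint (R1 to R5) in red. Control 5 has the tallest bar for Gabrd (1.36 RPKM), Prkcd (28.9 CPM), Lef1 (5.52 CPM) and Gbx2 (4.96 CPM), but not for Tcf7l2 or Rora.

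**Figure D3:**
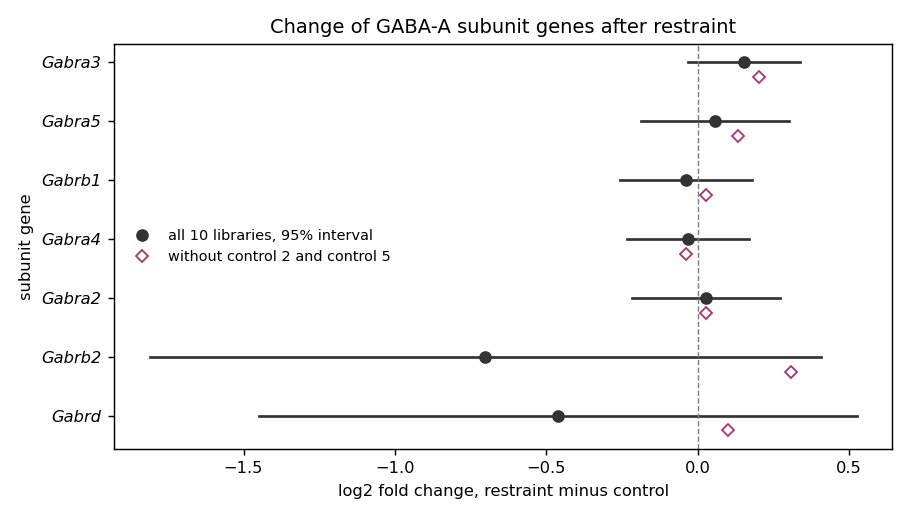
Log2 fold change of each subunit gene, restraint minus control, with all 10 libraries (filled points, bars are 95% intervals from edgeR) and without control 2 and control 5 (open diamonds). All 7 intervals include 0, and without these 2 libraries Gabrb2 and Gabrd move from -0.70 and -0.46 to 0.31 and 0.10.

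The order of the mean levels was Gabra3, Gabra5, Gabrb1, Gabra4, Gabra2, Gabrb2 and Gabrd. Gabra3 exceeded Gabra5 in 10 of 10 libraries, by 2.36 to 3.51 times, with no overlap of their ranges. Gabra5 exceeded Gabrb1 in 9 of 10 libraries, and the ratio ran from 0.994 to 1.63. Gabrb1 exceeded Gabra4 and Gabra4 exceeded Gabra2 in 10 of 10 libraries each, although the ranges of these neighbours overlapped. Gabrb2 lay above Gabrd in 8 of 10 libraries, so the order of these 2 is the least certain.

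As proportions of the summed RPKM of the 7 genes, Gabra3 took 49.3, 46.6, 44.8, 47.2 and 44.9% in the controls and 51.8, 47.4, 49.2, 48.5 and 51.4% after restraint. All 5 restraint libraries lay above the control mean of 46.6%, but control 1 lay among them. The mean share was 46.6 ± 1.85% without restraint against 49.7 ± 1.90% (SD, n = 5 each), 3.11 percentage points more (exact two-sided permutation p = 0.0397; 0.194 after adjustment over the 7 shares tested, which did not pass; the smallest p that 5 against 5 libraries can give is 0.00794). Without restraint 1 the difference was 2.57 points (exact permutation p = 0.0714). Because control 2 has much Gabrb2, the share was also taken without Gabrb2 and Gabrd, an alternative chosen after seeing the data: the difference was then 2.56 points (exact permutation p = 0.127). As a share of all 16 tested subunit genes it was 1.51 points (exact permutation p = 0.0159, not adjusted). In shares of counts not scaled by exon length the difference was 2.99 points and the groups did not overlap (exact permutation p = 0.00794, not adjusted). Neither the share of all 16 genes nor the unscaled share was repeated without restraint 1, the library with the highest scaled share (51.8%).

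The share of Gabrb1 was 14.3, 14.3, 14.2, 13 and 13.4% in the controls and 12.3, 11.9, 13.7, 13.3 and 13% after restraint. The means of 13.8 ± 0.601% and 12.8 ± 0.757% (SD, n = 5 each) differed by -0.97 points (exact two-sided permutation p = 0.0556, 0.194 adjusted over the 7 shares). The unadjusted exact permutation p was 0.0317 without control 4 (-1.19 points), 0.0397 without restraint 3 (-1.20 points) and 0.103 without restraint 1 (-0.84 points). Gabra5 took 16.9 ± 1.79% and 16.8 ± 1.69%, Gabra4 11.1 ± 1.26% and 10.4 ± 0.376%, and Gabra2 8.49 ± 1.15% and 8.27 ± 0.581% in controls and after restraint. Their exact permutation p ran from 0.27 (Gabra4) to 0.976 (Gabra5), before adjustment. Without control 2, whose Gabra4 share of 8.86% was the lowest, the Gabra4 share differed by -1.25 points (exact permutation p = 0.00794, not adjusted), against -0.69 points over all libraries. Gabrb2 took 0.827 to 7.08% in controls and 0.737 to 2.18% after restraint, and Gabrd 0.353 to 2.00% and 0.210 to 0.925%. The alpha-3 share was the largest in each library and the alpha-5 share second, except that in control 1 Gabrb1 was second.

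**Figure D4:**
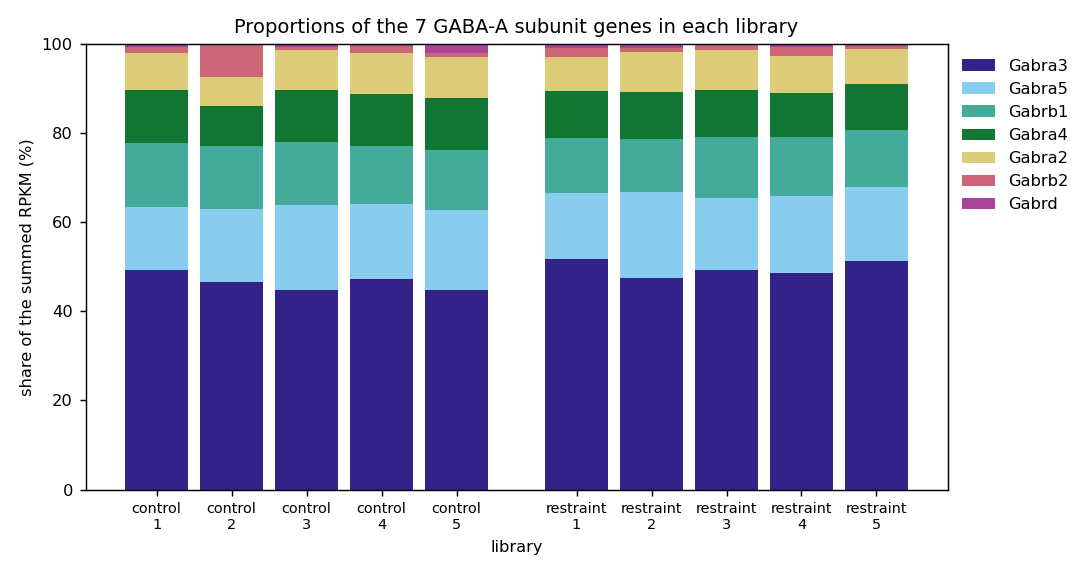
Stacked bars give the share of each of the 7 subunit genes in their summed RPKM, in percent, for the 5 control and 5 restraint libraries. Gabra3 holds 44.8 to 51.8% in every library, and the wide Gabrb2 band of control 2 is 7.08%.

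The summed level of the 7 genes was 58.3, 65.4, 57.7, 58.9 and 67.7 RPKM in the controls and 63.4, 57.8, 66.3, 76.6 and 57.0 RPKM after restraint. The control range of 57.7 to 67.7 RPKM lay within the restraint range of 57.0 to 76.6 RPKM. The means were 61.6 ± 4.63 and 64.2 ± 7.92 RPKM (SD, n = 5 each), a ratio of 1.04 (log2 0.06). With 1 library left out the log2 ratio ran from -0.011, without restraint 4, to 0.10. Restraint 4 was the highest library and restraint 5 the lowest. Of all 16 tested subunit genes, the 7 held 31.8 ± 1.93% in controls and 32.9 ± 0.916% after restraint.

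Across the 10 libraries, the levels of Gabra2 and Gabra4 stayed closest to each other. The Gabra2 to Gabra4 ratio ran from 0.708 to 0.843, with a coefficient of variation of 6.47%, the lowest of the 21 pairs. The correlation of their log2 CPM over 10 libraries was r = 0.896 (Spearman's rho 0.855), and r = 0.913 after each group's mean was removed. Gabra4 and Gabrb1, whose starts overlap, had r = 0.494 and a ratio that varied by 10.6%. Without control 2 their r was 0.823. The ratio of Gabra3 to Gabrb1, named after its values were seen, was 3.37 ± 0.186 over the controls and 3.88 ± 0.262 over the restraint libraries (SD, n = 5 each). These are descriptions over libraries that also share differences in depth and cell makeup, and no test was made of them.

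Other genes with similar patterns were found by the same correlation over 10 libraries among 11197 genes. Closest to Gabra3 were Copa (r = 0.964), a coat protein gene of vesicle transport, Exoc3 (0.952), an exocyst subunit gene, Lgi1 (0.951), which encodes a secreted synaptic protein, Cstf2 (0.949), an mRNA 3′ end processing gene, and St8sia3 (0.943), a sialyltransferase gene. Closest to the mean of the 7 genes were Mical2 (0.938), Zfp668 (0.932), Mmab (0.924), Dpysl5 (0.917) and Shisal1 (0.916). The scarce Gabrb2 and Gabrd vary most and weigh most in that mean.

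Other genes of GABA signalling were counted from lists, and in each list 0 genes passed by edgeR. Of the 9 other tested receptor subunit genes, 1 was lower and 0 higher at an unadjusted p under 0.05, where 6.04% and 5.64% of all genes were. That gene was Gabrg1, a gamma subunit gene next to Gabra2, with 59.9 ± 4.52 CPM in the control and 52.7 ± 2.87 CPM in the restraint libraries (SD, n = 5 each). Its log2 fold change was -0.18 ± 0.08 (SE; edgeR adjusted p = 0.371), and 5 of 5 restraint libraries lay below the control median. Gabre, the epsilon gene (0.21 ± 0.17), Gabrq, the theta gene (0.11 ± 0.11), and Gabrr2, a rho gene (-0.74 ± 0.76), had larger p.

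Among 25 tested genes of receptor anchoring and trafficking, 1 was higher and 3 lower at an unadjusted p under 0.05 (median log2 fold change -0.03). Over all genes 5.64% were higher and 6.04% lower at that p. Gabarapl2, a relative of the GABA-A receptor-associated protein that works in autophagy, had 260 ± 23 CPM without restraint and 190 ± 39.4 CPM with it (SD, n = 5 each; log2 -0.45 ± 0.12, edgeR adjusted p = 0.154). All 5 restraint libraries lay below the control median, and the groups overlapped. Plcl2, which encodes a phospholipase C-like protein that binds receptor partners, stood at 58.2 ± 3.53 and 69.0 ± 4.18 CPM without overlap of the groups (log2 0.25 ± 0.08, edgeR adjusted p = 0.211). In 2.61% of all genes the groups did not overlap. Gabarapl1 (-0.17 ± 0.07) and Lhfpl3 (-0.21 ± 0.09) had the next smallest p.

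Of 8 genes of GABA synthesis, transport and breakdown, 0 passed by edgeR, while 1 was higher and 0 lower at an unadjusted p under 0.05 (median log2 fold change -0.02). Over all genes 5.64% were higher and 6.04% lower at that p. Slc6a11, an astrocyte GABA transporter gene (0.21 ± 0.13), Slc32a1, the vesicular GABA transporter gene (0.10 ± 0.10), and Aldh5a1, a GABA breakdown gene (-0.07 ± 0.09), each had an unadjusted p above 0.05. Of 5 genes of the GABA-B receptor and its partners, 0 reached an unadjusted p under 0.05 in either direction; Kctd16 (0.34 ± 0.24), the receptor gene Gabbr2 (0.12 ± 0.15), Kctd8 (0.07 ± 0.10) and Kctd12 (-0.05 ± 0.08) had the smallest p.

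Of 11 genes that set the chloride gradient, on which the effect of GABA-A receptors depends, 2 were higher and 1 lower at an unadjusted p under 0.05 (median 0.15, 8 positive). Over all genes 5.64% were higher and 6.04% lower at that p, and 49.6% had a positive log2 fold change. Stk39, which encodes the kinase SPAK that acts on chloride cotransporters, had 158 ± 8.97 CPM without restraint and 196 ± 10.7 CPM with it (SD, n = 5 each). The groups did not overlap (145 to 168 against 186 to 210 CPM), which held for 2.61% of all genes. The log2 fold change of Stk39 was 0.31 ± 0.07 (SE; edgeR adjusted p = 0.106), which did not pass. Car7, a carbonic anhydrase gene (0.33 ± 0.13), Clcn2, a chloride channel gene (-0.28 ± 0.12), and Wnk1, a kinase gene upstream of SPAK (0.18 ± 0.09), followed. Of 8 tested genes of neurosteroid synthesis and the benzodiazepine site ligand, 0 reached an unadjusted p under 0.05 (median -0.02); Srd5a1, the gene of a 5-alpha reductase (0.21 ± 0.14), Tspo, a mitochondrial outer membrane protein gene (-0.28 ± 0.23), Acbd3 (0.06 ± 0.07) and Cyp11a1, the gene of the first enzyme of steroid synthesis (0.16 ± 0.28), had the smallest p.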

How the data were processed

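RNA from the ventral tegmental area was measured in 5 control and 5 restraint libraries. The series' design text describes it as ribosome-bound RNA enriched from dopaminergic neurons, while the molecule label says total RNA. The deposited table holds whole-number read counts per gene, made with featureCounts 2.0.3 on exons of GENCODE M30, per the file headers. The recorded command names no option for strand, for counting read pairs or for multi-mapping reads, per the file headers, so each mate was counted and strands were not told apart. Trimmomatic, STAR, FastQC and the build mm10 are named, without versions, per the submitters' processing notes; GENCODE M30 is an annotation of GRCm39, and gene coordinates are those of the table. Whether reads were aligned to the build of that annotation could not be checked from the table, and a mismatch would affect every count and level given here. Symbols were matched by gene identifier (52073 of 56691 genes). Exon length in bases, another value of the same table as deposited, served for RPKM.

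Genes were filtered with filterByExpr (count minimum 10, total minimum 15), scaled by TMM and tested with edgeR 4.0.16 (R 4.3.3, glmQLFit and glmQLFTest on group alone), with Benjamini-Hochberg adjustment over 18440 genes and a threshold of 0.05. Log2 CPM used a prior count of 2. Standard errors came from the fold change and F, and 95% intervals from these and the total degrees of freedom. Shares were tested by exact permutation over 252 splits. On simulated data with 18036 genes for this comparison, the same test found 53% of genes changed 1.5-fold and 84% of those changed 2-fold. The changed genes, 100 for each fold, were drawn from well-counted genes, and no library was made to lie apart. The simulation gave 147 calls, against 4 in the deposited data, which makes its adjusted threshold easier to pass. These rates are therefore not those of the deposited data, in which Gabrb2 and Gabrd had standard errors of 0.52 and 0.47. Alternatives were other scalings, filters and tests (DESeq2 1.42.0, limma-voom with limma 3.58.1), robust estimation, halved counts, a length trend, a replicate block and leaving out libraries.

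The members and lists were chosen with earlier results of these data known. Named genes are the 7 members, up to 4 tested genes with the smallest p of each of 6 lists, and 5 genes per pattern by likeness; 9 marker lists served as checks. A gene falling under this rule is not reported here.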

Additional observations from a re-analysis of the deposited data

Results flagged for a closer look

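Some libraries lay apart from the other 4 of their group by a gap of more than 0.71 of the group's range. Control 2 had 4.63 RPKM of Gabrb2, against 0.477 to 0.948 RPKM in the other controls, and a Gabrb2 share of 7.08%, against 0.827 to 1.61%. Its Gabra4 share was 8.86%, against 11.5 to 11.8%. Control 5 had 1.36 RPKM of Gabrd, against 0.231 to 0.403 RPKM, and a Gabrd share of 2.00%, against 0.353 to 0.691%. These were 5 of 32 groups of values checked, and chance alone flags a single group about 1 time in 20. The 5 all come from control 2 and control 5 and are not independent. A level and its share rest on the same counts, and the shares of a library have a common total. Their number can therefore not be compared with chance. The cause was not tested.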

How the results depend on the processing

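The count of subunit genes called stayed at 0 of 7 under all 23 alternatives (0 of 6 in DESeq2, which gave Gabrd no adjusted p), and Gabra3 kept a positive log2 fold change in each of them (0.10 to 0.20, edgeR, voom or DESeq2 adjusted p 0.361 to 0.746). The count over all genes, 4 in the main analysis, was less stable: 17 with library size as the only scaling, 302 with every gene of at least 1 count, 331 with DESeq2, 87 with voom and quality weights, 85 with the length trend removed, 0 with robust estimation in edgeR (2154 at an unadjusted p under 0.05), 23 without control 2 and control 5 (an alternative chosen after seeing the data) and 0 to 92 with 1 library left out (92 without restraint 5, 20 without control 5, 17 without restraint 2, 2 without restraint 1 and 0 in the other 6 cases). Without control 2 and control 5 the signs of Gabrb1 (0.027), Gabrb2 (0.31) and Gabrd (0.10) turned. With 1 library left out, log2 fold changes ran from -0.038 to 0.10 for Gabra2, -0.08 to 0.019 for Gabra4, -0.026 to 0.11 for Gabra5, -0.12 to 0.015 for Gabrb1, -1.02 to 0.38 for Gabrb2 and -0.64 to 0.24 for Gabrd. The difference in share ran from -0.68 to 0.52 points for Gabra5, -1.36 to 0.20 for Gabrb2 and -0.35 to 0.059 for Gabrd. Without scaling by exon length the Gabra5 share differed by 0.21 points, and among all tested subunits by 0.17 points, with 0.018 points for Gabra2. The cause of these turns was not tested, beyond the libraries named. The share difference of Gabra3 kept its sign throughout (2.57 to 3.79 points with 1 library left out), and its exact permutation p was above 0.05 in 7 of 10 such cases, those without control 2, 3, 4 or 5 or restraint 1, 3 or 5. Both mates of a read pair were counted; with counts halved, 4 genes were called. Counting error was a small part of the spread over libraries (coefficient of variation from counting of 12.1% against 74.9% in all for Gabrd, and 5.35% against 104% for Gabrb2), so the spread between libraries, more than depth, limits both. The counting figures take each count as independent and are too low where both mates were counted.

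Libraries of the 2 groups that share a number did not deviate together (correlations of -0.394 to 0.198), so the number was not taken as a pairing. With it as a block, 0 of all genes were called by edgeR (1704 at an unadjusted p under 0.05), and the Gabra3 share had an exact p of 0.0625 (sign-flip permutation), the smallest that 5 pairs allow.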
